A study of Mus musculus with 6 samples.

Results

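The sterol genes *Hmgcs1*, *Idi1*, *Fdft1*, *Sqle*, *Cyp51*, *Dhcr7*, and *Insig1*, 7 in all, were compared between control and *Slc39a8*-NSKO mouse cerebellum. They were chosen by name as sterol synthesis and SREBP2 target genes, and all 7 were found among the 53715 genes of the count table and passed the filter on low counts. The mice were males of the C57BL/6 strain by the labels (C57BL/6J in the methods), 4 weeks old, with 3 control and 3 *Slc39a8*-NSKO animals and 1 cerebellum per library. In *Slc39a8*-NSKO mice, a synapsin-driven Cre deletes floxed *Slc39a8*, which encodes a metal importer, in neurons, so that glial, vascular, and other cells of the tissue keep the gene. The sample labels call the controls WT, whereas elsewhere the study names *Slc39a8* fl/fl mice as controls. mRNA was measured by oligo-dT-primed, paired-end RNA-Seq, and the libraries held between 14431260 and 20844267 counts on genes. *Slc39a8* itself had 2.04 ± 0.138 CPM (counts per 1000000 counts of the library, SD, n = 3) in *Slc39a8*-NSKO and 3.60 ± 1.04 CPM (SD, n = 3) in control cerebellum, without overlap (log2 fold change −0.83; edgeR's quasi-likelihood test gave an adjusted p of 0.534). Its unadjusted p in that test was 0.00359, on 38 to 99 counts per mouse.

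Cells build cholesterol from acetyl-CoA through mevalonate, isoprenoid units, squalene, and lanosterol. When sterols in the endoplasmic reticulum run low, the transcription factor SREBP2 is carried by its escort SCAP to the Golgi, where proteases release its active part, and it then induces nearly every enzyme of the route. INSIG1 holds SCAP and SREBP2 back when sterols are plentiful, and its own gene is a SREBP2 target. The brain makes its cholesterol locally, because lipoproteins of the blood do not cross its barrier. Oligodendrocytes use large amounts of it for myelin, and astrocytes pass some to neurons on particles that contain apolipoprotein E.

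None of the 7 genes differed between the genotypes beyond the spread between mice. With the quasi-likelihood test of edgeR fitted to the 16330 genes that could be tested, 0 of the 7 passed an adjusted p of 0.05, and 0 had an unadjusted p below 0.05. Over all genes tested, 0.0980% passed the adjusted and 5.39% the unadjusted threshold. DESeq2 and limma-voom also gave 0 of 7 at either threshold. The log2 fold changes of the 7 genes lay between −0.088 for *Cyp51* and 0.076 for *Dhcr7*, with a median of −0.0028 beside 0.0011 over all genes tested. Of the 7 genes, 3 were above 0 and 4 below it, where 50.5% of all genes were above 0. The 95% intervals of the 7 fold changes together ran from 0.855 to 1.18, so that a larger change in any of these mRNAs lies outside its interval. The values of the genotypes overlapped for each of the 7 genes, whereas 10.3% of all genes did not overlap.

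**Figure D1:**
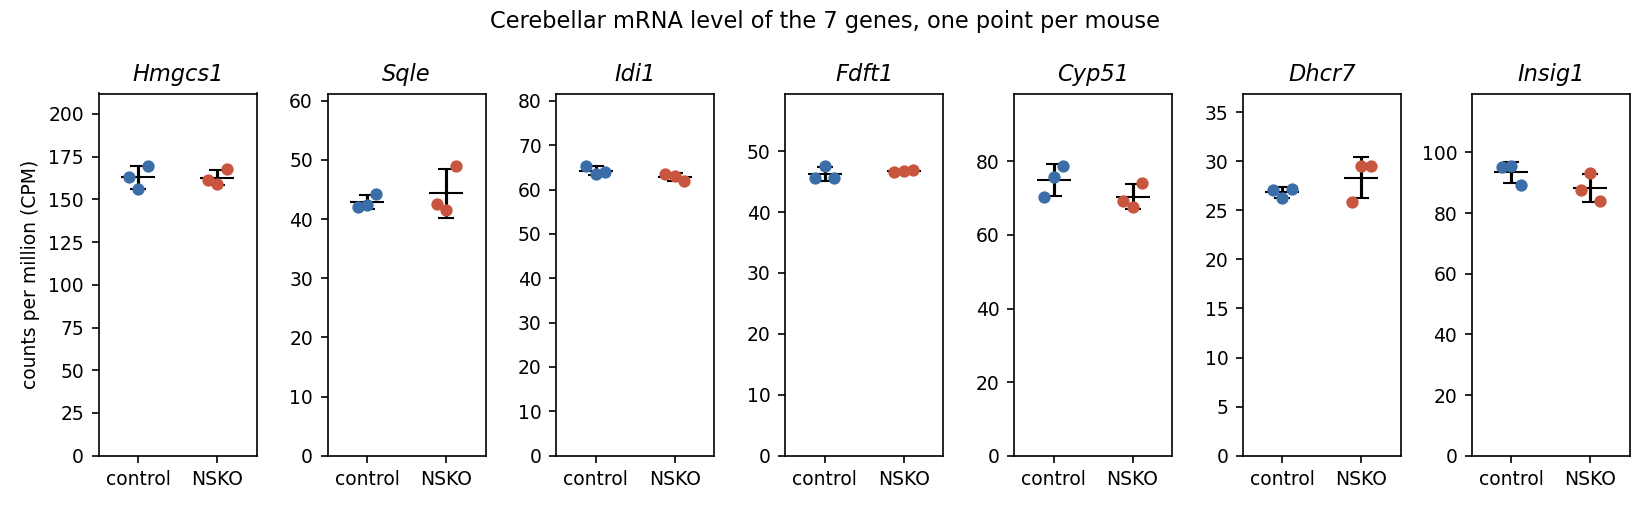
Each panel plots the level of 1 gene in CPM (linear axis from 0), with 1 point per mouse, 3 control mice in blue and 3 *Slc39a8*-NSKO mice in red. Horizontal bars are group means and whiskers are SD. The points of both genotypes overlap in all 7 panels, and the lowest of all group means, that of *Dhcr7* in control mice, is 26.8 CPM.

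The early, mevalonate part of the route was represented by *Hmgcs1* and *Idi1*. *Hmgcs1* (ENSMUSG00000093930.2) encodes the cytosolic synthase that makes HMG-CoA from acetyl-CoA and acetoacetyl-CoA, and occupies bases 119690379 to 119708260 of chromosome 13 (plus strand; all positions are GRCm38). Its level was 163, 156, and 169.6 CPM in control mice 1 to 3 and 161, 159, and 167 CPM in *Slc39a8*-NSKO mice 1 to 3. The lowest and the highest value both belonged to control mice. On the log2 scale the difference was −0.0028 (standard error 0.053), and the fold change had a 95% interval of 0.922 to 1.08, the narrowest of the 7 genes. Its expected counts were not whole numbers, as happens when reads are divided between features, and it shares exon bases on the opposite strand with *Gm48342*, which held at most 8.92 counts in a mouse.

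*Hmgcs1* is shown with its promoter because sterol control of this gene is textbook knowledge and it had the highest level per length of the 7. RefSeq promoters (GRCm38.p6) were found for 5 of the 7 genes, *Hmgcs1*, *Idi1*, *Cyp51*, *Dhcr7*, and *Insig1*. The 250 bases before each start were searched on both strands for the sterol regulatory element in the form TCACNCCAC, for the NF-Y box CCAAT, for the E-box CACGTG, and for the GC box GGGCGG. The sequence that follows is chr13:119690101-119690350 on the plus strand, which ends at the RefSeq start of transcription, and the capitals mark matches to any of these 4 motifs, some of them in reverse complement.
*Hmgcs1*: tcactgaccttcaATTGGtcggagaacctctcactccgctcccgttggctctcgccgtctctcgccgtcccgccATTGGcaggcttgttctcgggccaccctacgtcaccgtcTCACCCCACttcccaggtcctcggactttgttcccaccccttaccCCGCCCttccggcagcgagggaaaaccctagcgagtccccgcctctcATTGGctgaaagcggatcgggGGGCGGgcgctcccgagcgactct

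The sterol regulatory element in *Hmgcs1* began 137 bases before the start and did not overlap the 3 CCAAT and 2 GC boxes in the same window. TCACNCCAC was present in 1.05% of the 32851 promoters of the table and in none of the other 4 genes with a promoter. CCAAT was present before at least 1 start of each of the 5 genes, against 33.8% of all promoters. With *Insig1* and the other synthesis enzymes counted, it was present in 16 of the 17 genes with a promoter, some of which have more than 1 start. GGGCGG was present in 16 of the 17 (32.7% of all promoters), and CACGTG in 4 of the 17 (6.02%). Such matches describe letters in a window and were not tested as binding sites.

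*Idi1* (ENSMUSG00000058258.14, chromosome 13, plus strand, 8885501 to 8892451) encodes the isomerase that supplies the reactive form of the isoprenoid unit. Its values were 65.3, 63.4, and 63.9 CPM in control and 63.6, 63.0, and 61.9 CPM in *Slc39a8*-NSKO mice. All 6 mice lay close together, and the group ranges overlapped only by a narrow margin. The genotypes differed by −0.032 on the log2 scale (standard error 0.056; interval of the fold change 0.900 to 1.06). An exact permutation test, two-sided and on log2 CPM, gave p = 0.2, where 0.1 is the smallest p that 3 mice against 3 allow. Its counts were not whole in 3 mice, but no mouse had more than 3 counts of its paralog *Idi2*, and the overlapping *Gm48574* was at 0 in all mice.

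The squalene part of the route was represented by *Fdft1* and *Sqle*. *Fdft1* (ENSMUSG00000021273.10, chromosome 14, minus strand, 63145150 to 63179578) encodes squalene synthase, the first enzyme committed to sterols. Its level was 45.6, 47.6, and 45.6 CPM in control and 46.5, 46.7, and 46.9 CPM in *Slc39a8*-NSKO mice. The 3 *Slc39a8*-NSKO values fell within the range of the control values. This gave a log2 fold change of 0.015 (standard error 0.060; interval of the fold change 0.923 to 1.11). *Fdft1* shares exon bases with *Ctsb*, a lysosomal protease gene on the opposite strand that was much more abundant (7965 to 11617 counts in a mouse), and its counts were not whole in any mouse. *Ctsb* had a log2 fold change of 0.037 (adjusted p = 0.994 from edgeR's test), and whether the counting used the strand is not given in the sources used here.

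*Sqle* (ENSMUSG00000022351.14, chromosome 15, plus strand, 59315077 to 59331192) encodes squalene epoxidase, a rate-limiting enzyme of the later route. Its level was 42.0, 42.3, and 44.2 CPM in control and 42.5, 41.5, and 49.0 CPM in *Slc39a8*-NSKO mice. One animal, *Slc39a8*-NSKO mouse 3, stood above the other 5, and the lowest value was also in a *Slc39a8*-NSKO mouse. A log2 fold change of 0.048 (standard error 0.074; interval of the fold change 0.926 to 1.16) became −0.028 without that mouse (edgeR's adjusted p 0.999).

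The steps after lanosterol were represented by *Cyp51* and *Dhcr7*. *Cyp51* (ENSMUSG00000001467.5, chromosome 5, minus strand, 4081145 to 4104746) encodes the cytochrome P450 that demethylates lanosterol. Its level was 70.2, 75.9, and 78.8 CPM in control and 69.3, 67.7, and 74.3 CPM in *Slc39a8*-NSKO mice. The 2 lowest values were in *Slc39a8*-NSKO and the 2 highest in control mice, with control mouse 1 and *Slc39a8*-NSKO mouse 3 in overlap. Its log2 fold change, −0.088 (standard error 0.064; interval of the fold change 0.855 to 1.03), was the largest in size of the 7 with all mice included, and its unadjusted p of 0.189 ranked 3047 among the 16330 genes. The largest in size of the 7 was instead that of *Dhcr7* without *Slc39a8*-NSKO mouse 1, and that of *Insig1* without control mouse 3 or *Slc39a8*-NSKO mouse 2. *Cyp51* shares exon bases with *Akap9* on the opposite strand, which had 1429 to 2498 counts in a mouse and a log2 fold change of 0.019 (adjusted p = 0.996 from edgeR's test).

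*Dhcr7* (ENSMUSG00000058454.15, chromosome 7, plus strand, 143823145 to 143848410) encodes the reductase that completes cholesterol in one arm of the route and is the gene mutated in Smith-Lemli-Opitz syndrome. Its level was 27.1, 26.2, and 27.2 CPM in control and 25.9, 29.5, and 29.5 CPM in *Slc39a8*-NSKO mice. Of the *Slc39a8*-NSKO mice, 2 were above all controls and the other was below all of them. The difference for *Dhcr7* was 0.076 on the log2 scale (standard error 0.077; interval of the fold change 0.940 to 1.18), and it was 0.14 without *Slc39a8*-NSKO mouse 1, where edgeR's adjusted p was 0.999.

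*Insig1* (ENSMUSG00000045294.11, chromosome 5, plus strand, 28071363 to 28078662), the sensor among the 7, restrains SREBP2 processing when sterols are abundant. Its level was 95.2, 95.5, and 89.4 CPM in control and 87.7, 93.2, and 83.8 CPM in *Slc39a8*-NSKO mice. The 2 highest values were in control mice, the 2 lowest in *Slc39a8*-NSKO mice, and *Slc39a8*-NSKO mouse 2 lay above control mouse 3. For *Insig1* this came to −0.082 on the log2 scale (standard error 0.060; interval of the fold change 0.865 to 1.03). edgeR's unadjusted p was 0.192, with an exact two-sided permutation p of 0.2. The promoter stretch chr5:28071162-28071362 on the plus strand, cut where the annotated exon begins, is shown for comparison with *Hmgcs1*, since it carries an E-box, 1 CCAAT box, and 3 GC boxes but no TCACNCCAC, with matches in capitals.
*Insig1*: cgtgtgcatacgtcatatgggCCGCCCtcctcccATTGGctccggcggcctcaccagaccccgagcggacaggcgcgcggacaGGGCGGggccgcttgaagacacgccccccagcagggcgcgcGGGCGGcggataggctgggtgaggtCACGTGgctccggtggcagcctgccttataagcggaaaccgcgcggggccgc

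Each of the 7 genes had a smaller standard error than the median gene tested (0.096 on the log2 scale). Their standard errors on the log2 scale ranged from 0.053 to 0.077, with a median of 0.060, beside a median of 0.068 over the 5855 genes in the same range of CPM. Those of *Sqle* (0.074) and *Dhcr7* (0.077) were above the latter median. The median size of the log2 fold change was 0.048 for the 7 genes and 0.045 for those 5855 genes. Each gene's highest value over the 6 mice was between 1.04 times (*Fdft1*) and 1.18 times (*Sqle*) its lowest. Of the 42 values, 34 lay within 5% of the gene's own mean over the 6 mice and 41 within 10%. The exception was *Sqle* in *Slc39a8*-NSKO mouse 3, at 12.3% above the mean. For *Fdft1* and *Idi1*, the coefficient of variation within a genotype was 0.428% to 2.48%, below the 3.44% and 2.94% that counting error alone gives at their mean counts.

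The genes did not vary together from mouse to mouse. Of the 21 pairs among the 7 genes, 8 had a positive Pearson's r of log2 CPM over the 6 mice, with a median r of −0.076 and a range from −0.83 (*Sqle* and *Insig1*) to 0.67 (*Hmgcs1* and *Sqle*). After the genotype means were removed, 10 of 21 pairs were positive. These coefficients describe 6 libraries only. In *Slc39a8*-NSKO mouse 3, *Sqle* and *Dhcr7* were above their means while *Insig1* was at its lowest, and in control mouse 2, *Insig1* and *Cyp51* were above and *Hmgcs1* was at its lowest.

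**Figure D2:**
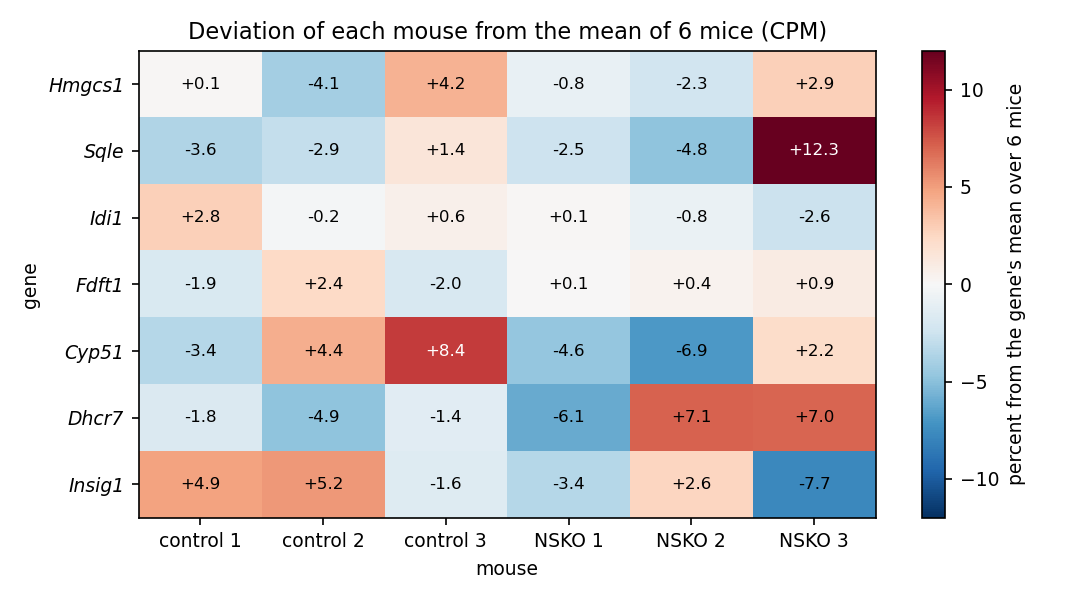
Rows are the 7 genes and columns the 6 mice. Each cell gives, in percent, how far the CPM of that mouse lies from the gene's mean over 6 mice, with red above and blue below it. No column is of one color throughout, and the cells run from −7.7% (*Insig1*, *Slc39a8*-NSKO mouse 3) to 12.3% (*Sqle*, the same mouse).

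Summed over the 7 genes, the level was 509, 507, and 519 CPM in control and 497, 501, and 513 CPM in *Slc39a8*-NSKO mice. The *Slc39a8*-NSKO sums were 97.2% to 100.3% of the control mean, and they overlapped the control sums.

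Per length, the order of the levels was *Hmgcs1*, *Insig1*, *Idi1*, *Cyp51*, *Fdft1*, *Sqle*, and *Dhcr7*. In RPKM, that is, CPM per kilobase of all annotated exons of a gene, the control means were 35.5 ± 1.46, 30.2 ± 1.12, 18.3 ± 0.284, 17.0 ± 0.986, 10.9 ± 0.271, 7.73 ± 0.212, and 4.61 ± 0.0909 (SD, n = 3 each). All 6 mice showed this order. The ranges of neighbors were separate over the 6 mice except for *Idi1* (17.7 to 18.6 RPKM) and *Cyp51* (15.3 to 17.8 RPKM), although *Idi1* was the higher of this pair within each of the 6 mice. Among the 21 enzymes of the route, *Hmgcs1* ranked first and *Idi1* second by RPKM, *Cyp51* was number 5, *Fdft1* 11, *Sqle* 15, and *Dhcr7* 17. *Lss*, which encodes lanosterol synthase, was the lowest at 3.72 RPKM over the 6 mice. Annotated exon length counts every isoform, so that a gene whose long forms are rare in cerebellum appears lower than it is.

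**Figure D3:**
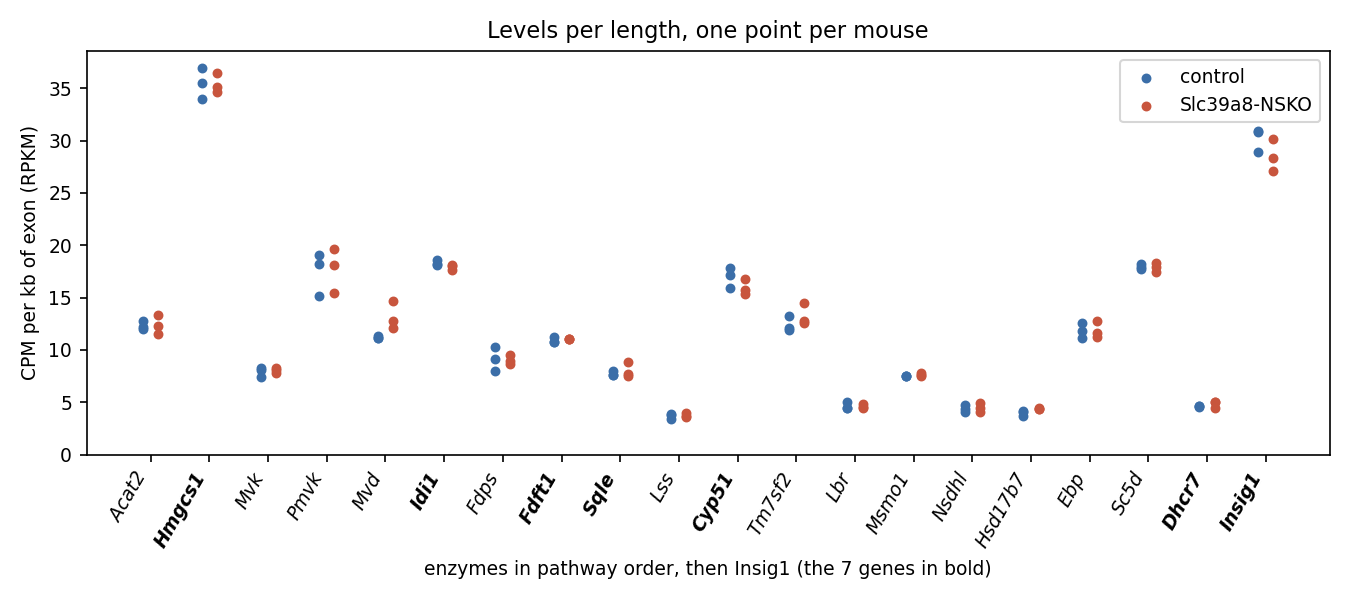
The vertical axis (linear, from 0) gives the level in RPKM, and the horizontal axis lists 19 of the 21 synthesis enzymes in pathway order followed by *Insig1*, with the 7 genes in bold. Each point is 1 mouse, control in blue and *Slc39a8*-NSKO in red. *Hmgcs1* and *Insig1* stand above all others, at 27.1 RPKM or more in every mouse.

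The rest of the route showed no gene past the threshold either. Of the 21 synthesis enzymes, 0 had an adjusted p below 0.05 in edgeR's quasi-likelihood test, 1 had an unadjusted p below 0.05, and 2 had values that did not overlap between the genotypes, beside 5.39% and 10.3% of all genes tested. The median log2 fold change of the 15 enzymes outside the 7 was 0.020, and 12 of them were above 0. *Msmo1*, which encodes a methylsterol oxidase that acts after *Cyp51* in the route, varied least of the 21 enzymes, between 46.3 and 47.9 CPM in all mice.

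*Mvd*, which encodes mevalonate diphosphate decarboxylase, the step before *Idi1*, had the lowest p among the enzymes. Its level was 21.1, 20.7, and 20.7 CPM in control and 23.7, 27.4, and 22.5 CPM in *Slc39a8*-NSKO mice. Every *Slc39a8*-NSKO value was above every control value, and *Slc39a8*-NSKO mouse 2 was the highest. The difference was 0.24 on the log2 scale (standard error 0.088), and edgeR's p was 0.0183 before and 0.860 after adjustment. The unadjusted p was above 0.05 without *Slc39a8*-NSKO mouse 2. *Hsd17b7*, a ketosteroid reductase gene of the later route, was the other enzyme without overlap, at 20.9, 18.8, and 21.5 CPM in control and 22.6, 22.1, and 22.4 CPM in *Slc39a8*-NSKO mice (log2 fold change 0.13, standard error 0.082, edgeR's adjusted p 0.993).

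A further 10 enzymes had log2 fold changes between −0.0062 (*Sc5d*) and 0.099 (*Tm7sf2*). *Acat2*, which starts the route from acetyl-CoA, was at 0.0033, and the mevalonate kinases *Mvk* and *Pmvk* were at 0.028 and 0.030. *Fdps*, which makes farnesyl diphosphate, was at −0.0049, and *Lss* at 0.011. Of the late steps, *Lbr* was at 0.0037, *Nsdhl* at 0.038, and *Ebp* at 0.0082 on the log2 scale. All of these had an adjusted p above 0.99 in edgeR's test.

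**Figure D4:**
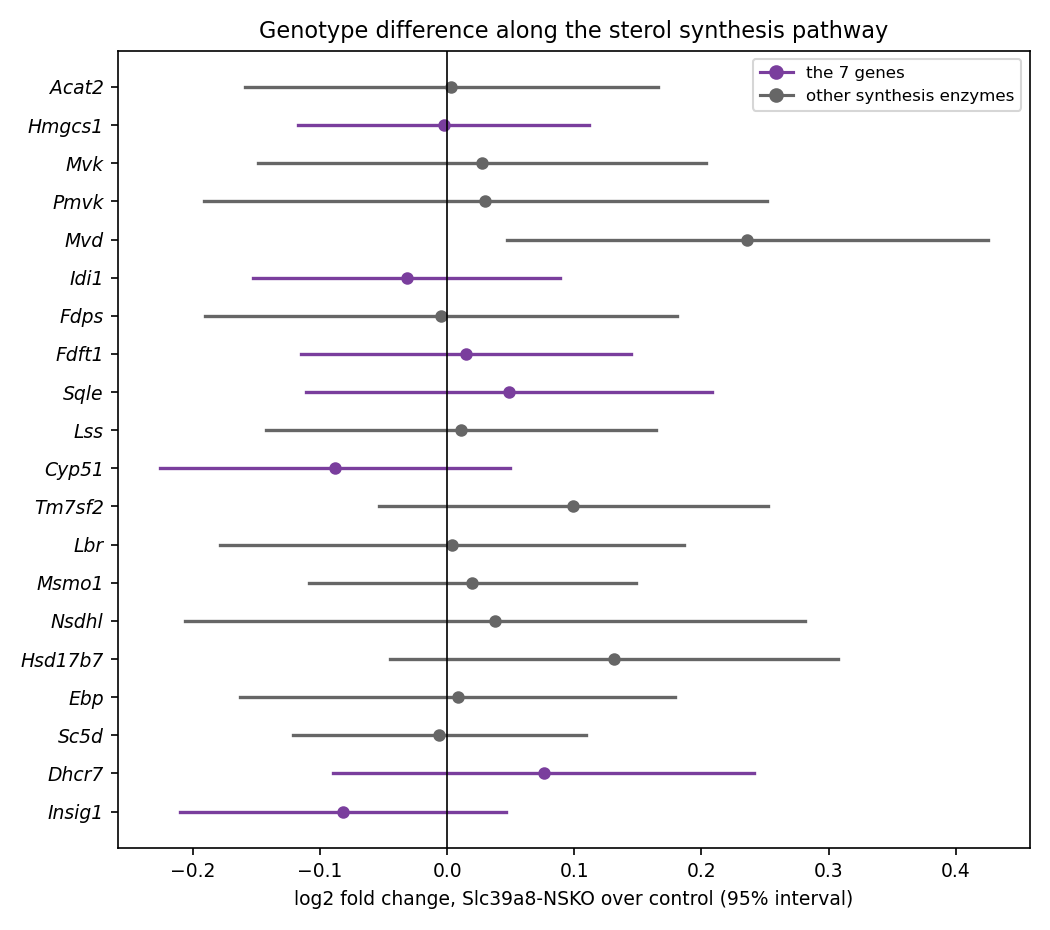
Points are log2 fold changes of *Slc39a8*-NSKO over control cerebellum (3 mice each) for 19 of the 21 synthesis enzymes in pathway order and *Insig1*, with lines for 95% intervals from edgeR's quasi-likelihood fit, the 7 genes in purple and the other enzymes in gray. The interval of each of the 7 genes includes 0, and of the other enzymes drawn only that of *Mvd* (log2 fold change 0.24) does not.

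The sterol-sensing machinery was likewise without a gene past the threshold. In edgeR's test, 0 of 11 genes had an adjusted and 0 an unadjusted p below 0.05, beside 0.0980% and 5.39% of all genes tested. *Srebf2*, which encodes SREBP2, had 140.0, 126, and 141 CPM in control and 153, 138, and 147 CPM in *Slc39a8*-NSKO mice, with overlap. Its log2 fold change was 0.11 (standard error 0.060; unadjusted p = 0.103). *Srebf1* (log2 fold change −0.014), the escort *Scap* (0.0094), and the second retention gene *Insig2* (0.018) were near 0. The proteases *Mbtps1* and *Mbtps2* were at −0.041 and −0.047. The ubiquitin ligase genes *Rnf139* and *Rnf145* were at −0.041 and 0.099 on the log2 scale.

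Of the 7 genes of sterol uptake and transport, 6 were tested, and 0 passed at either p (0.0980% and 5.39% of all genes tested). *Tmem97*, which encodes a partner of the cholesterol transporter NPC1, had 10.7, 12.2, and 12.5 CPM in control and 10.3, 9.14, and 10.8 CPM in *Slc39a8*-NSKO mice, an overlap by 1 mouse of each group (log2 fold change −0.23, standard error 0.12, unadjusted p = 0.0757). *Stard4*, *Npc1*, *Npc2*, and *Aacs* lay between −0.069 and 0.024 on the log2 scale.

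In neighboring lipid pathways, 0 genes had an adjusted p below 0.05 in edgeR's test. The shares over all genes tested were 0.0980% at that threshold and 5.39% at an unadjusted p below 0.05. In sterol efflux and turnover, 0 of 11 genes had an unadjusted p below 0.05, and the 2 lowest in edgeR's test belonged to *Mylip* (log2 fold change 0.18, unadjusted p 0.104), which encodes a ubiquitin ligase induced by oxysterols, and to the oxysterol receptor gene *Nr1h2* (−0.088, unadjusted p 0.179). Of the other members of that list, *Apoe*, the apolipoprotein E gene, was at 1411 and 1440 CPM in control and *Slc39a8*-NSKO mice (means, n = 3 each). In the isoprenoid branches that lead to dolichol and ubiquinone, 0 of 7 genes had an unadjusted p below 0.05, the lowest in edgeR's test being those of *Dhdds* (log2 fold change 0.078, unadjusted p 0.236) and *Coq2* (−0.062, unadjusted p 0.346). In fatty acid synthesis, 2 of 10 genes had one, the desaturase genes *Fads2* (log2 fold change 0.24, unadjusted p 0.0119, adjusted p 0.804 by edgeR) and *Fads1* (0.11, unadjusted p 0.0460, adjusted p 0.912 by edgeR). *Fads2* had 59.4, 47.2, and 51.7 CPM in control and 63.4, 58.1, and 65.9 CPM in *Slc39a8*-NSKO mice, which overlapped, and *Fads1* had 178, 177, and 172 against 183, 190.0, and 198 CPM, which did not. In all, 66 of the 67 pathway genes were tested. *Slc39a8*-NSKO values all lay above the control values for 3 of them (*Mvd*, *Hsd17b7*, and *Fads1*). They all lay below for 1 gene that is not reported here. Over all genes tested, 10.3% did not overlap in either direction.

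The tissue was checked against marker genes of its cells, because glia and neurons differ in how much sterol they make. Markers of Purkinje cells, granule cells, Bergmann glia and astrocytes, and oligodendrocytes were all counted in every mouse, and none of the defining markers was at 0. In bulk tissue, fewer cells of a type and less RNA per cell cannot be told apart. The 10 oligodendrocyte markers all had log2 fold changes below 0 (median −0.071), and 0 passed the adjusted threshold. Their summed level was 8510 to 9704 CPM in control and 7918 to 9545 CPM in *Slc39a8*-NSKO mice. *Mbp*, which encodes myelin basic protein, had a log2 difference of −0.072 with an adjusted p of 0.994 in edgeR's test. The 9 Bergmann glia and astrocyte markers all had log2 fold changes above 0 (median 0.079). Of these, 4 had an unadjusted p below 0.05 and 0 passed the adjusted threshold, beside 5.39% and 0.0980% of all genes tested. The summed level of these markers was 2925 to 3347 CPM in control and 3432 to 3554 CPM in *Slc39a8*-NSKO mice, without overlap. The part of these shifts in the levels of the sterol genes was not tested.

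Of the other marker lists, 0 of 7 Purkinje cell, 0 of 7 granule cell, 0 of 7 microglia, 0 of 5 endothelial, 0 of 5 choroid plexus, and 0 of 5 erythroid markers passed the adjusted threshold. At an unadjusted p below 0.05 there were 1, 0, 1, 0, 3, and 0 of them in that order. The shares over all genes tested were 0.0980% at the adjusted and 5.39% at the unadjusted threshold. The microglia sum was 104 to 114 CPM in control and 121 to 124 CPM in *Slc39a8*-NSKO mice, and the summed choroid plexus level was 773 to 1111 CPM in control and 901 to 1552 CPM in *Slc39a8*-NSKO mice. Of the 5 heart muscle markers, 4 were tested and 3 were higher past the threshold, from a summed level of 2.03 to 2.92 CPM in control to 11.1 to 13.1 CPM in *Slc39a8*-NSKO mice.

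**Figure D5:**
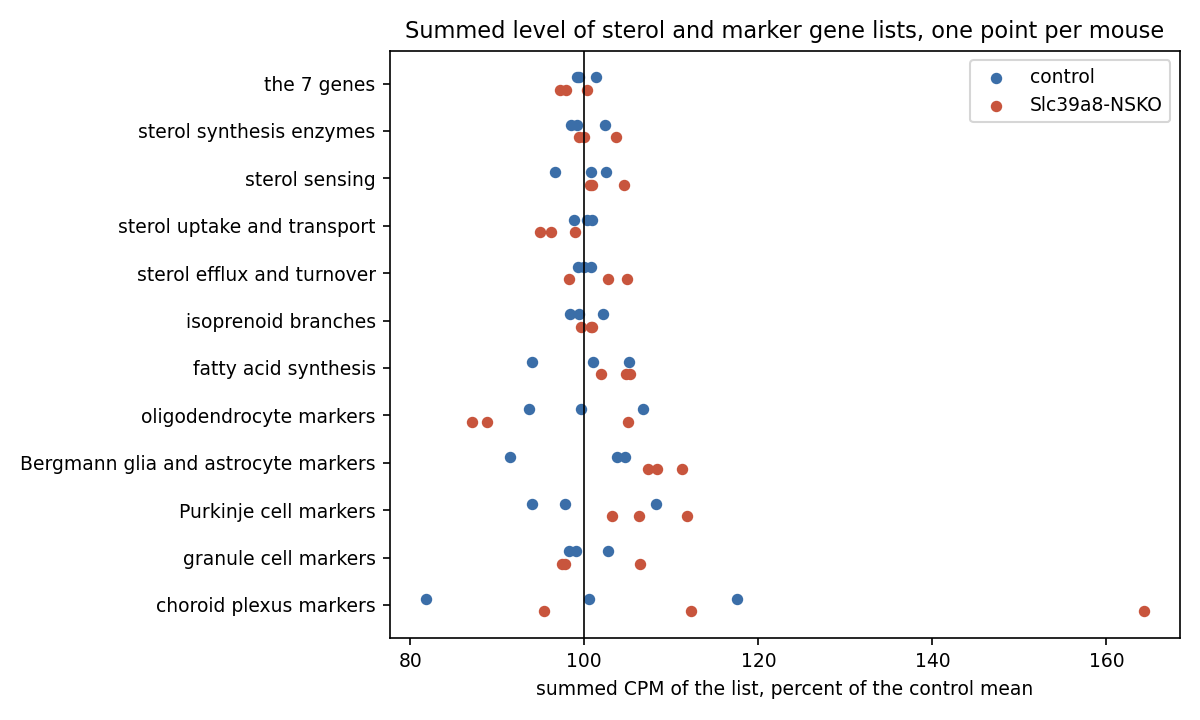
The horizontal axis gives the summed CPM of each gene list as a percent of its control mean (vertical line at 100), with 1 point per mouse, control in blue and *Slc39a8*-NSKO in red. The 7 genes span 97.2% to 101.4%, a narrower range than oligodendrocyte markers (87.1% to 106.8%) or choroid plexus markers (81.8% to 164%). The isoprenoid branches (98.38% to 102.2%) and the synthesis enzymes (98.45% to 103.6%) are similarly narrow.

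The mean standardized log2 CPM of the 7 genes varied from mouse to mouse most like the oligodendrocyte list among the marker lists compared. The 7 genes did not vary together (8 of 21 pairs with a positive r, median −0.076), so their mean does not stand for a pattern that they share. This mean was highest in *Slc39a8*-NSKO mouse 3 (0.29) and control mouse 3 (0.23) and lowest in *Slc39a8*-NSKO mouse 1 (−0.43), so that the genotypes overlapped. Of 10806 other genes with a mean of at least 3 log2 CPM, the most alike by Pearson's r over the 6 mice were *Ric8a* (0.985), *5031439G07Rik* (0.981), *Ndrg1* (0.977), *Gss* (0.974), and *H2-K1* (0.968). The 10 oligodendrocyte markers had r between 0.57 and 0.96 with a median of 0.85, with *Mobp* at rank 10 of all genes. Medians were −0.21 for Bergmann glia and astrocyte markers, −0.31 for Purkinje cell markers, −0.45 for granule cell markers, and −0.039 over all genes compared. The other synthesis enzymes had a median r of 0.22, and *Insig2* was among the least alike (r = −0.93). These coefficients rest on 6 libraries that share depth and tissue composition between genes, and they are a description only.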

How the data were processed

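The authors deposited expected counts per gene and library, made from paired-end reads aligned with STAR and counted with RSEM on mm10, according to the submitters' processing notes; versions are not given in the sources used here. The labels name a directional library kit and the methods do not say whether counting used the strand. Spike-in entries (92) were left out, and 53620 of 53715 genes had a name in GENCODE M21. Expected counts were rounded and analysed in R 4.3.3 with edgeR 4.0.16 (TMM, filterByExpr, glmQLFit, glmQLFTest, no covariate) over 16330 genes, with Benjamini-Hochberg adjustment and a threshold of 0.05. Standard errors and 95% intervals were derived from the quasi-likelihood F statistic. CPM refer to TMM library sizes, and log2 CPM had a prior count of 2. Replicates of a genotype differed by more than sampling noise (chi-square per degree of freedom 3.96 to 7.70) and were treated as separate mice, as the methods state. A figure legend of the study instead calls the samples technical triplicates. Totals of 14431260 to 20844267 counts set the precision, and the intervals cover the spread between these mice.

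The 7 genes and the lists were chosen with earlier results of these data known. The genes named with values are the 7, the other enzymes, the sensing and uptake genes, the 2 with the lowest p and any past the threshold in each other pathway list, *Slc39a8*, *Mbp*, and the 5 most alike, with some genes of these lists not reported here; *Apoe*, *Mobp*, and the genes that overlap or resemble the 7 were added after their values were seen. Alternatives were DESeq2 1.42.0, limma-voom (limma 3.58.1), RLE or library size alone, no filter, at least 10 counts in every mouse, unrounded counts, a block for the replicate number, a threshold of 0.1, and each mouse left out. The main edgeR fit, DESeq2, and limma-voom were first checked on simulated counts with known changes, larger than those of the 7 genes. The other alternatives were not checked in this way.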

Additional observations from a re-analysis of the deposited data

How the results depend on the processing

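Under each alternative, 0 of the 7 genes and 0 of the pathway genes passed the threshold. The lowest adjusted p of a pathway gene in edgeR's test depended on the setting, at 0.804 in the main fit. It was 0.0879 with no filter, 0.757 with at least 10 counts in every mouse, and 0.326 with the replicate block. With a mouse left out, it ran from 0.151 (without control mouse 1) to 0.9997 (without control mouse 2). Values that did not overlap between the genotypes were found for 0 of the 7 genes with all mice and for 1 to 2 when a mouse was left out, where 18.4% to 25.6% of all genes did not overlap. These were *Cyp51* without control mouse 1 or *Slc39a8*-NSKO mouse 3, *Idi1* and *Fdft1* without control mouse 2, *Insig1* without control mouse 3 or *Slc39a8*-NSKO mouse 2, and *Idi1* and *Dhcr7* without *Slc39a8*-NSKO mouse 1. The log2 fold change of *Hmgcs1*, −0.0028, changed sign with library size alone (0.0021), with no filter (0.0028), and with mice left out (−0.031 to 0.028, of which 0.028 without control mouse 3, 0.0044 without *Slc39a8*-NSKO mouse 1, and 0.014 without *Slc39a8*-NSKO mouse 2). That of *Sqle* ran from −0.028 (without *Slc39a8*-NSKO mouse 3) to 0.094. The other 5 genes kept their direction under all alternatives, but their log2 fold changes depended on single mice. *Cyp51* ran from −0.13 (without control mouse 1) to −0.049 (without control mouse 3), *Insig1* from −0.12 (without *Slc39a8*-NSKO mouse 2) to −0.046 (without *Slc39a8*-NSKO mouse 3), and *Idi1* from −0.041 (without control mouse 2) to −0.018 (without control mouse 1). *Fdft1* ran from 0.0057 (without control mouse 1) to 0.035 (without control mouse 2), and *Dhcr7* from 0.045 (without *Slc39a8*-NSKO mouse 2) to 0.14 (without *Slc39a8*-NSKO mouse 1). With the replicate number as a block, 0 of the 7 genes passed, and 41 genes in all passed against 16 without it. The block gave *Srebf2* and *Rnf145* an unadjusted p below 0.05, which made 5 pathway genes against 3, and *Rnf145* also had one without control mouse 1. Mice of the same number deviated together with r of 0.14, 0.12, and 0.010. Numbers 1 and 2 correlated best with their own number in both genotypes, and number 3 did not. The numbers were not taken as pairs, and whether mice of the same number share a batch was not tested. Over all genes, 178 passed with no filter, 37 with DESeq2, 12 with limma-voom, 11 with at least 10 counts in every mouse, and 9 (without *Slc39a8*-NSKO mouse 2) to 38 (without control mouse 1) with a mouse left out, and the cause of these differences was not tested. With 3 mice per genotype, there cannot be an exact permutation p below 0.1.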
